A study of Mus musculus with 2 samples.

Results

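The loci of 7 genes tied to the formative and primed states of pluripotency were read for their CpG modification states: Otx2, Fgf5, Pou3f1, Zic2, Lef1, Tcf7l1 and Sall2. The genes were chosen by name and not by a measured value, though earlier results of these data were known. They are 7 of 21938 protein-coding genes of GENCODE vM21. Every CpG site between 10 kb before the 5′ end of the gene and its 3′ end was taken. This gave 4688 sites with 45651 calls in replicate 1 and 1637 sites with 10354 calls in replicate 2, out of 13676795 and 4918612 sites genome-wide. The DNA came from E14 cells, an established line of mouse embryonic stem cells, grown on gelatin with serum and LIF in 1 untreated condition, with 2 replicates. The study describes the cells as being in the primed state and took the DNA from 2 passages. No contrast between conditions exists in these data, so genes, regions and windows were compared within each replicate and then between the replicates. SCoTCH-seq keeps the strands of a DNA fragment together with a hairpin, so that each read pair gives the state of both cytosines of a CpG. CC is unmodified, MM carries 5-methylcytosine (mC) on both strands, MC/CM on 1 strand, HC/CH carries 5-hydroxymethylcytosine (hmC) opposite an unmodified cytosine, HM/MH carries hmC opposite mC, and HH carries hmC on both strands. A level is the percentage of all calls in a region that show the state.

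Naive cells resemble the preimplantation epiblast, formative cells the early postimplantation epiblast, and primed cells the later epiblast that is ready to form germ layers. Otx2 and Pou3f1 are transcription factors of the formative state, and Zic2 is a zinc finger factor that takes part in the change of enhancers at the exit. Fgf5 is a secreted growth factor widely used as a marker of the postimplantation epiblast. Lef1 and Tcf7l1 are HMG-box factors at the end of the Wnt pathway, of which Tcf7l1 acts mainly as a repressor, and Sall2 is a zinc finger factor of the spalt family. DNA methyltransferases write mC, and TET enzymes oxidise it to hmC. RNA was not measured in these libraries, so the expression state of the 7 genes and of the cells was not tested.

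The 7 loci differed in size, CpG density and coverage. Tcf7l1 (ENSMUSG00000055799.13, chr6:72626378-72789254, minus strand, mm10) spans 162.877 kb and Lef1 (ENSMUSG00000027985.14, chr3:131110471-131224356, plus strand) 113.886 kb. Fgf5 (ENSMUSG00000029337.2, chr5:98254184-98277030, plus strand), Sall2 (ENSMUSG00000049532.11, chr14:52311172-52328762, minus strand) and Otx2 (ENSMUSG00000021848.16, chr14:48657677-48673819, minus strand) span 22.847, 17.591 and 16.143 kb. Zic2 (ENSMUSG00000061524.8, chr14:122475435-122479852, plus strand) and Pou3f1 (ENSMUSG00000090125.3, chr4:124656807-124660655, plus strand) are short, at 4.418 and 3.849 kb, and Pou3f1 has 1 exon. The promoter, taken as 1 kb either side of the transcription start site (TSS) at the 5′ end of the gene, held 207 CpG sites at Zic2 and 41 at Sall2. The share of these promoter sites with at least 5 calls ranged from 25.5% at Pou3f1 to 80.5% at Sall2 in replicate 1. In replicate 2 it was 0.966% at Zic2, 0.813% at Lef1 and at most 39.0%. Replicate 2 therefore held 11 calls in the Zic2 promoter and 6 in the Lef1 promoter, too few for a comparison.

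Across gene bodies, from 1 kb after the TSS to the 3′ end, the members ran from almost wholly unmodified to the level of an ordinary gene. The CC level was 93.9% of 294 calls and 98.4% of 61 calls at Pou3f1 in replicates 1 and 2, 91.0% and 91.6% at Zic2, and 82.5% and 84.3% at Otx2. Sall2 lay at 65.7% and 61.1%, and Tcf7l1 at 40.4% and 33.8%. Fgf5 had CC levels of 21.3% and 23.4%, and Lef1 of 20.3% and 19.4%. The mean of the replicates fell from 96.1% ± 3.17 at Pou3f1 through 91.3% ± 0.418 at Zic2, 83.4% ± 1.22 at Otx2, 63.4% ± 3.28 at Sall2 and 37.1% ± 4.67 at Tcf7l1 to 22.4% ± 1.51 at Fgf5 and 19.9% ± 0.6004 at Lef1 (SD, n = 2). In this order Pou3f1 could not be told from Zic2 nor Fgf5 from Lef1 by their 95% Clopper-Pearson intervals, while the other neighbours had intervals that did not overlap in either replicate. These intervals cover counting error only. In bulk DNA, an intermediate level from a mix of cells and one from a mix of alleles cannot be told apart. Among 12768 genes with at least 200 body calls in each replicate, the median CC level was 20.8% and 16.9%. Zic2 and Otx2 stood at percentiles 99.9 and 99.5 in replicate 1 and 99.9 and 99.6 in replicate 2, Sall2 at 97.8 in both, and Tcf7l1 at 88.3 and 86.1. Fgf5 and Lef1 stood near the middle, at 51.9 and 47.8 in replicate 1 and 70.8 and 59.6 in replicate 2, and Pou3f1 had too few calls in replicate 2 to be ranked. Start sites that lie inside the body were counted as body. The principal transcript of Otx2 starts 8.713 kb inside the gene, and within 250 bp CC was 98.4% of 62 calls and 91.7% of 24. Sall2 has an inner start at 12.439 kb and Lef1 at 2.326 kb. How these genes rank without the sequence around their inner starts was not tested.

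MM was the most frequent modified state in the body of Lef1, Fgf5, Tcf7l1, Sall2 and Otx2, and not at Pou3f1 in either replicate nor at Zic2 in replicate 2. It made up 55.9% and 57.4% of body calls at Lef1, 52.3% and 57.5% at Fgf5, 39.4% and 44.5% at Tcf7l1, and 21.0% and 22.6% at Sall2. It fell to 8.56% and 7.46% at Otx2, to 3.06% and 1.78% at Zic2, and to 1.36% and 0 of 61 calls at Pou3f1, which allows up to 5.87%. Methylation on 1 strand followed the same direction, from 16.2% and 11.8% MC/CM at Fgf5 and 11.9% and 13.3% at Lef1 to 2.30% and 2.67% at Zic2. The median gene had MC/CM levels of 12.7% and 14.1% and MM levels of 55.97% and 60.9%.

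HC/CH was the more abundant hydroxymethylated state in the body of Tcf7l1, Lef1, Sall2, Zic2 and Pou3f1 in both replicates. At Pou3f1 this rests on 12 HC/CH calls in replicate 1 and 1 in replicate 2, beside 0 HM/MH calls in each. The HC/CH level was highest at the Wnt pathway factors. Tcf7l1 had HC/CH levels of 7.45% (95% interval 7.05 to 7.86) and 6.99% (6.23 to 7.81), at percentiles 93.9 and 90.1 of the genes ranked. Lef1 followed with 6.08% (5.67 to 6.51) and 5.48% (4.65 to 6.41), at percentiles 74.2 and 72.0. Their intervals were apart in replicate 1 and overlapped in replicate 2. Sall2 lay at 4.74% and 4.38%, Fgf5 at 4.29% and 3.25%, and Zic2 at 2.30% and 3.11%, beside a median gene at 5.01% and 4.31%. No neighbours in the order of HC/CH levels were apart in both replicates. Otx2 gave unequal values, 2.91% (2.25 to 3.70) in replicate 1 and 0.663% (0.181 to 1.69) in replicate 2, a gap larger than counting error, with 4 HC/CH calls behind the second value. Pou3f1 lay at 4.08% of 294 calls and 1.64% of 61.

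HM/MH read 5.61% and 3.71% at Fgf5, 5.16% and 4.09% at Lef1, 656 of 16400 calls and 4.08% at Tcf7l1 and 1.97% and 2.68% at Sall2, against 4.26% and 2.72% at the median gene. At Otx2 it was 1.43% and 1.16% and at Zic2 1.07% and 0.889%. On the synthetic duplexes of known state, 4.51% of the calls at MM sites read HM/MH in replicate 1 and 0.467% in replicate 2. After correction with these rates, body HM/MH was 3.19% and 3.45% at Fgf5, 2.496% and 3.75% at Lef1, 2.11% and 3.74% at Tcf7l1 and 0.939% and 2.49% at Sall2. The corrected median gene had 1.62% and 2.35%, and Fgf5 stood at percentiles 96.2 and 83.1. Corrected HC/CH moved little at the 2 genes with the highest levels, to 7.18% and 7.11% at Tcf7l1 and 5.64% and 5.51% at Lef1. At Fgf5 it went from 4.29% and 3.25% to 3.64% and 3.15%, which put it above corrected HM/MH in replicate 1 and below it in replicate 2. At Otx2 it went from 2.91% and 0.663% to 2.67% and 0.426%.

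**Figure D1:**
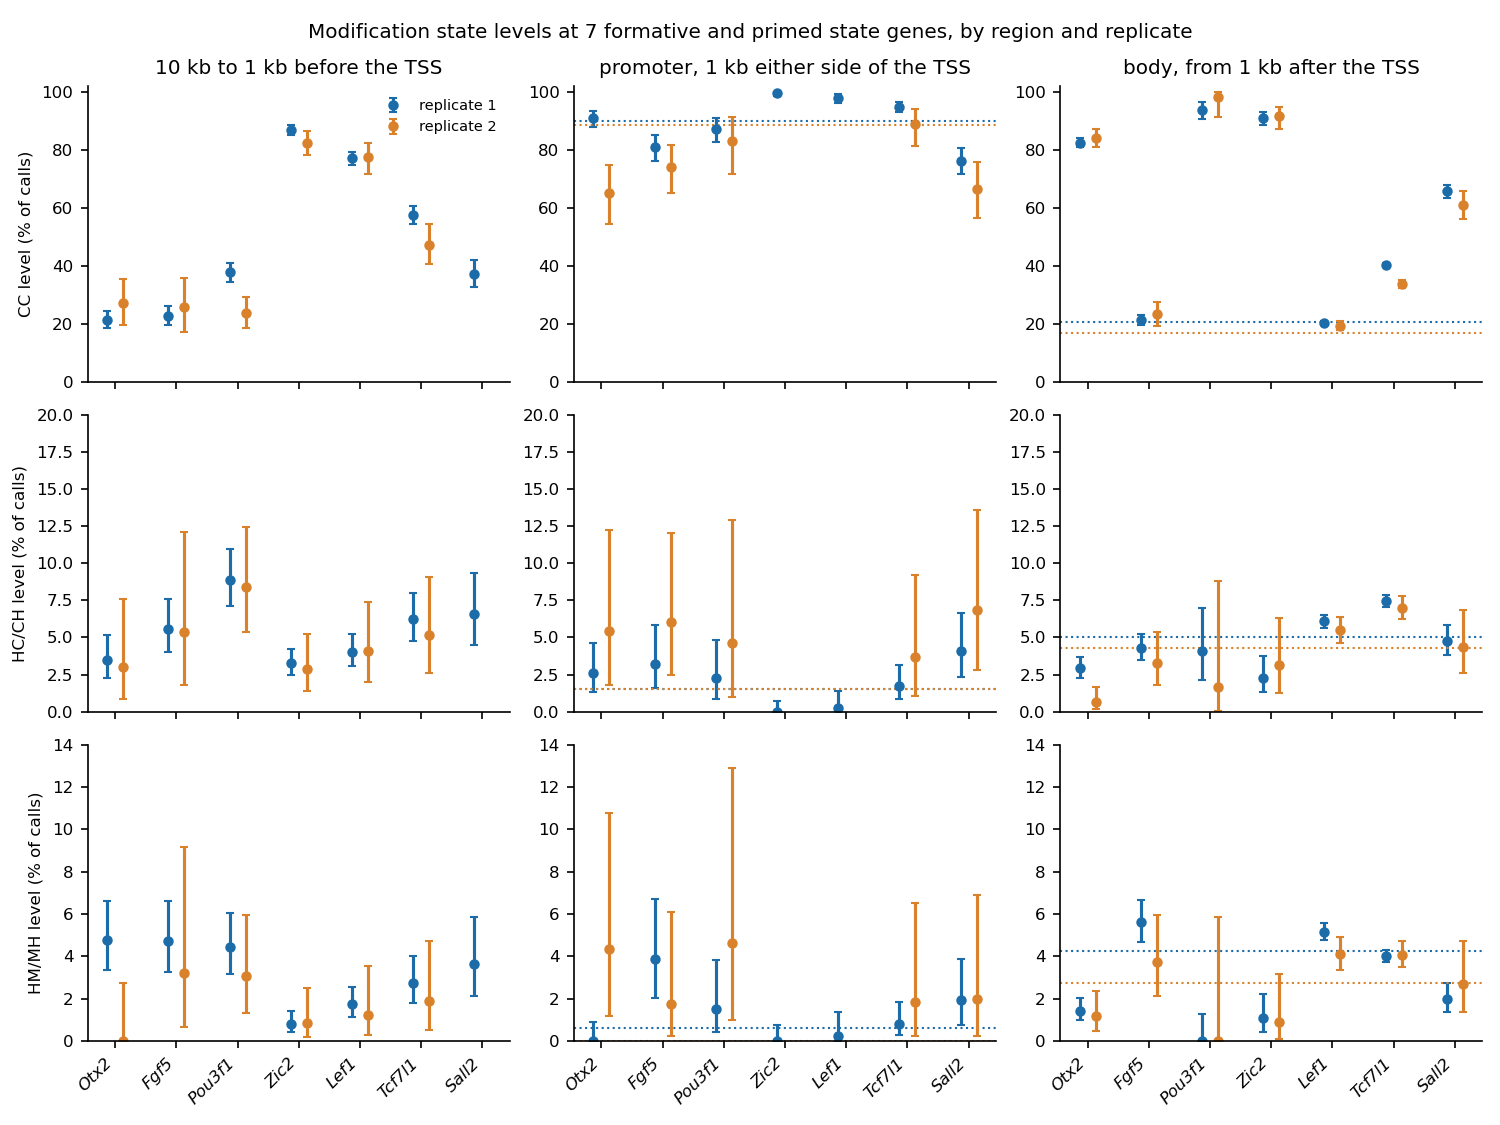
Level of CC, HC/CH and HM/MH (percent of calls, rows) upstream, in the promoter and in the body (columns) of the 7 genes, with replicate 1 in blue and replicate 2 in orange. Bars are 95% Clopper-Pearson intervals, regions under 50 calls are left out, and dotted lines give the median of all ranked genes, drawn for promoters and bodies only. Pou3f1, Zic2 and Otx2 have body CC levels above 80%, and Tcf7l1 has the highest body HC/CH level.

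When the hydroxymethylated calls were set against all modified calls, a measure added after the levels had been seen, the order changed. The share of modified calls with hmC was 66.7% of 18 calls (41.0 to 86.7) at Pou3f1 in replicate 1, with 1 modified call in replicate 2, and Pou3f1 was not ranked. Most of its hmC calls in replicate 1 lay in the last window of the gene, from 3 kb. This window read 16.1% HC/CH of 56 calls and had no call in replicate 2. The share was 40.7% of 59 calls and 47.4% of 19 at Zic2, with 95% intervals of 28.1 to 54.3 and 24.4 to 71.1. It was 20.4% and 18.8% at Sall2, 20.03% and 17.2% at Tcf7l1, 15.0% and 12.2% at Lef1 and 12.9% and 9.39% at Fgf5, beside 12.8% and 9.07% at the median gene. Zic2, Sall2 and Tcf7l1 thus stood above percentile 91 in both replicates, Fgf5 near percentile 50, and Otx2 at 98.3 in replicate 1 and 75.6 in replicate 2. The same 3 genes remained above percentile 91 after correction, with Zic2 at 39.8% and 54.97%, Sall2 at 16.3% and 18.5% and Tcf7l1 at 15.8% and 16.9%. Corrected shares were 10.5% and 11.8% at Lef1 and 8.62% and 8.91% at Fgf5, beside 8.24% and 8.60% at the median gene. The percentiles were taken over all ranked genes, without regard to CC or to start sites inside the body, such as those of Otx2 and Sall2. In 1 kb windows of all protein-coding loci, sorted by CC in replicate 1, the share in replicate 2 was 7.09% under 20% CC. It was 13.6% from 20 to 50%, 22.96% from 50 to 80% and 28.0% above 80%. Windows of the 7 loci read 9.07%, 18.4%, 28.5% and 26.2% in these classes. Zic2 had windows only from 50 to 80% CC and above 80%, with shares of 29.7% and 25.6%. Over the 4 classes Tcf7l1 read 10.7%, 17.2%, 28.6% and 27.6%, and Sall2 7.81%, 22.2%, 29.4% and 36%. Whether Zic2, Sall2 and Tcf7l1 stand apart from genes of like CC level was not tested.

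The first comparison asked whether the promoter differed from the body. Most genes were less methylated in the promoter, and the members followed this in part. Of the members, 5 had enough calls: CC was called higher in the promoter at Fgf5 and Tcf7l1, lower at Pou3f1, and neither at Otx2 and Sall2. Of the 10307 genes tested, 87.8% were called higher and 2.47% lower. Fgf5 had a promoter CC level of 80.9% in replicate 1 and 74.1% in replicate 2, against 21.3% and 23.4% in the body (adjusted p = 6.98e-94 and 2.70e-23, two-sided Fisher's exact test with Benjamini-Hochberg adjustment). Tcf7l1 had 94.9% and 88.9% against 40.4% and 33.8% (adjusted p = 5.62e-182 and 1.64e-31, Fisher's exact test). Pou3f1 had 87.2% and 83.1% against 93.9% and 98.4% (adjusted p = 0.00889 and 0.00505, Fisher's exact test). A quasi-binomial test over CpG sites, which allows for calls that vary together within a site, called Fgf5 and Tcf7l1 and left Pou3f1 at an adjusted p of 0.116. With a promoter of 500 bp either side, Pou3f1 was the 1 member with enough calls to test, and it was called lower. Calls of the same read pair are not independent, so the p-values of Fisher's test are too small throughout. The quasi-binomial test takes CpG sites as independent, though a read pair can cover several, so its p-values can be too small as well.

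MM was called lower in the promoter at Fgf5 and Tcf7l1, from 52.3% to 6.80% and from 39.4% to 1.59% in replicate 1, among 87.2% of all genes. At Otx2 promoter minus body was -4.26 and 7.75 percentage points, of opposite sign (adjusted p = 0.00229 and 0.0275, Fisher's exact test). At Pou3f1 MM was higher in the promoter, by 4.65 and 7.69, and not called (adjusted p = 0.00530 and 0.0638, Fisher's exact test). Sall2 was lower in both replicates and not called. MC/CM was called lower at Fgf5 and Tcf7l1, among 63.7% of all genes. HC/CH was called at 0 of 5 members and lower at 12.2% of all genes, and HM/MH at 0 of 5 members and lower at 0.485%. Without adjustment, HC/CH passed p under 0.05 at 1 member in replicate 1 and at 1 in replicate 2, never at a member in both with the same direction, and the quasi-binomial test called 0 members as well. For Tcf7l1 HC/CH was 1.75% in the promoter against 7.45% in the body in replicate 1 (adjusted p = 4.15e-09, Fisher's exact test) and 3.70% against 6.99% in replicate 2, with 108 promoter calls (adjusted p = 0.439, Fisher's exact test).

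At Otx2 the result turned on the start site. Its annotated 5′ end is the start of Otx2-210, while Otx2-202, Otx2-205, Otx2-208 and Otx2-209 start 6.175 to 6.311 kb inside it and the principal transcript 8.713 kb inside. The promoter at the 5′ end read 90.9% CC of 419 calls in replicate 1 and 65.2% of 92 in replicate 2, above the body in the first and below it in the second. With the principal start site, the CC level of the promoter was 18.2 percentage points above the body on average and the difference was called in both replicates. Within 250 bp of the starts near 6.3 kb, replicate 1 had 79.2% CC and 11.1% HC/CH of 72 calls, and replicate 2 had none. Within 250 bp of the principal start, CC was 98.4% of 62 calls and 91.7% of 24, and within 250 bp of the annotated 5′ end it was 96.6% of 59 calls and 5 of 5.

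Promoter sequences are given for 4 members, to show windows of high and low CpG number and the inner starts of Otx2. They are RefSeq promoter windows of build GRCm38 (mm10), from 250 bases before to 50 after a start, 5′ to 3′ on the strand of the gene, with each CpG in capitals. The table held windows of 5 of the members and none of Pou3f1 and Zic2.
Tcf7l1, chr6:72788996-72789295, minus strand: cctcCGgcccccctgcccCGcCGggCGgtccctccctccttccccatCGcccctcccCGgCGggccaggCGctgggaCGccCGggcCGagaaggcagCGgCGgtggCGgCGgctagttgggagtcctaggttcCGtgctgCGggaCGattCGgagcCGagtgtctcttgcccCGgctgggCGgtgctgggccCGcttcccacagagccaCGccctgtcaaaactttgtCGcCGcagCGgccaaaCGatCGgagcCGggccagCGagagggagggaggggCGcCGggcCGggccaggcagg
Fgf5, chr5:98253934-98254233, plus strand: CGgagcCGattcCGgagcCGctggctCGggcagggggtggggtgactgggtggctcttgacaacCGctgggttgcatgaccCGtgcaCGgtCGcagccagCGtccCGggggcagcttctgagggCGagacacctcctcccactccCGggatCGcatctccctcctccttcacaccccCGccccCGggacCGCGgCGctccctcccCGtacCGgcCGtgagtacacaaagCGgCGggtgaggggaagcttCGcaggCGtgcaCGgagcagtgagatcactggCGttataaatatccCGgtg
Sall2, chr14:52328621-52328920, minus strand: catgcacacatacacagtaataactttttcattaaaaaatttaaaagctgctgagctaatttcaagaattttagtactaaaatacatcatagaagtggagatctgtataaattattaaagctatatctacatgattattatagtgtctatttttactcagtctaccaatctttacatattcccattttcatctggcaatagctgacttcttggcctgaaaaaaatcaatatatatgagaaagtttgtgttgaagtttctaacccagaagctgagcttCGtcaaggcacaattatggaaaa
Otx2, starts near 6.3 kb, chr14:48667459-48667758, minus strand: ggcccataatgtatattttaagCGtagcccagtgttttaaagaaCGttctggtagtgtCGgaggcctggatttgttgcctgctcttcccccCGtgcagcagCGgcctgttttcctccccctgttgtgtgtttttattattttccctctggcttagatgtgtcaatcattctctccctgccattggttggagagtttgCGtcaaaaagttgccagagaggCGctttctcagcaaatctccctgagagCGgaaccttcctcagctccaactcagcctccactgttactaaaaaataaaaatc
Otx2, principal start, chr14:48665060-48665359, minus strand: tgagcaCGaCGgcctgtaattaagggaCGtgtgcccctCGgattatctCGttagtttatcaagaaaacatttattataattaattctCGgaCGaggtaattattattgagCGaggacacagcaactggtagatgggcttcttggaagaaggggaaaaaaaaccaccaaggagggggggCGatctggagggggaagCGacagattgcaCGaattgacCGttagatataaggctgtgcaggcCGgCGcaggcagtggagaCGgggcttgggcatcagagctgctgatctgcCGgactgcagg

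The Tcf7l1 window held 34 CpG sites, more than 92.3% of 32851 promoter windows, and all 98 calls of replicate 1 were CC. The Fgf5 window held 29, and all 27 calls of replicate 1 were CC. Neither window had a call in replicate 2. The Sall2 window held 1 CpG, fewer than nearly all windows (percentile 5.43), and this site was CC in 5 of 8 calls and 1 of 5 calls and MM in 3 of 8 and 1 of 5. The inner start of Sall2, at 12.439 kb, has a window with 10 CpG sites and no call in either replicate, but the 1 kb window around it read 100% CC of 118 and of 22 calls. The Otx2 window near 6.3 kb held 8 CpG sites and read 83.6% CC and 6.56% HC/CH of 61 calls in replicate 1, and the window of the principal start held 16 and read 97.1% of 35 and 89.5% of 19 calls as CC. The letters TAATCC, the core bound by Otx factors, were searched on both strands and stood in 1 of the members' windows, at the principal start of Otx2, and in 7.06% of all windows. CTTTGAT, the core bound by Lef1 and Tcf7l1, and ATGCAAAT, bound by POU factors, stood in no window of a member, and in 3.73% and 1.74% of all windows.

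The flanks before the genes separated the members more than their promoters did. In the region from 10 kb to 1 kb before the TSS, CC was called lower than in the body at Otx2, Pou3f1 and Zic2 and higher at Lef1 and Tcf7l1. Over 16034 genes, 19.9% were called lower and 27.6% higher. Otx2 had 21.5% CC upstream in replicate 1 and 27.3% in replicate 2, against 82.5% and 84.3% in the body (adjusted p = 1.44e-193 and 2.79e-35, Fisher's exact test). This holds for the annotated 5′ end of Otx2. Before its principal start the unmodified run measured 10 kb in replicate 1 and 7 kb in replicate 2, and the contrast was not run with that start. The length in replicate 1 depends on where the windows begin. Pou3f1 had 37.9% and 23.8% against 93.9% and 98.4% (adjusted p = 1.95e-70 and 4.43e-28, Fisher's exact test). Lef1 lay the other way, with 77.2% and 77.5% upstream against 20.3% and 19.4% (adjusted p = 2.18e-73 in replicate 2, Fisher's exact test). Tcf7l1 and Zic2 differed by less, with 57.6% and 47.4% against 40.4% and 33.8% at Tcf7l1 and 86.9% and 82.5% against 91.0% and 91.6% at Zic2. The quasi-binomial test over sites kept Otx2, Pou3f1 and Lef1 and gave an adjusted p of 0.0698 for Tcf7l1 and 0.221 for Zic2. Fgf5 was as methylated upstream as in its body, with 22.8% and 25.8% CC against 21.3% and 23.4%, and Sall2 had 47 upstream calls in replicate 2 and was not tested.

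MM mirrored CC in the flanks. It was called higher upstream at Otx2, Pou3f1 and Zic2, beside 15.0% of all genes, and lower at Lef1 and Tcf7l1, beside 23.8%. These MM calls rest on Fisher's exact test, and the quasi-binomial test, which lost the CC calls of Zic2 and Tcf7l1, was not run for MM. MC/CM was called higher upstream at Otx2 and Pou3f1, beside 2.2% of all genes, with 15.7% and 18.9% upstream against 4.53% and 6.30% in the body of Otx2. Both MC/CM calls likewise rest on Fisher's exact test alone, and that of Otx2 on its annotated 5′ end. HC/CH was called at 0 of 6 members and higher at 0.524% of all genes. Without adjustment it passed p under 0.05 by Fisher's exact test at 2 members in replicate 1 and 1 in replicate 2, none in both with the same direction, and the quasi-binomial test called 0. The upstream flank of Pou3f1 nonetheless had the highest HC/CH level among the members' flanks, 8.89% (7.09 to 11.0) and 8.43% (5.36 to 12.5). By the mean of the replicates Tcf7l1 came next, with 6.24% (4.76 to 8.01) and 5.16% (2.61 to 9.05), and the intervals of these 2 genes overlapped in both replicates. The Pou3f1 flank lies within Gm2164, an annotated antisense gene.

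Exons and introns of the body were compared at 4 members with enough calls in both. Tcf7l1, Fgf5 and Pou3f1 had too few exon or intron calls. CC was called higher in exons at Lef1 and Sall2, beside 17.1% of all 12064 genes. Lef1 had 25.5% and 34.6% CC in exons against 19.8% and 18.1% in introns (adjusted p = 8.03e-05 and 4.31e-07, Fisher's exact test), and Sall2 73.6% and 67.8% against 61.1% and 55.98% (adjusted p = 4.53e-07 and 0.0430, Fisher's exact test). Both calls were lost with the quasi-binomial test over sites, at adjusted p = 0.0854 for Lef1 and 0.412 for Sall2. At Zic2, CC stood at 90.8% and 89.9% in exons and 91.1% and 92.9% in introns. HC/CH was called at 0 of 4 members, beside 0.348% of genes called higher in exons, and 0 passed an unadjusted p under 0.05 in either replicate by Fisher's exact test, nor was any called by the quasi-binomial test.

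In windows of 1 kb counted from the TSS, the members showed unmodified domains of different lengths. A domain was the run of windows on both sides of the TSS before the first window with at least 10 calls and a CC level under 50%. Windows of fewer calls were passed over and counted in the length, so a domain can include stretches with few or no calls. Zic2 had the longest, 26 kb in replicate 1 and 18 kb in replicate 2, at percentiles 99.6 and 99.1, and its 14 kb before the TSS reached into Zic5 (chr14:122456795-122465677, minus strand), the neighbouring gene of the same family. This reach rests on windows exactly at the threshold, the one at -5 kb with 20 CC of 40 calls in replicate 1 and the one at -9 kb with 13 of 26 in replicate 2. The 12 kb after the TSS in replicate 1 went past the 3′ end of Zic2, which spans 4.418 kb. Lef1 followed with 10 and 8 kb (percentiles 97.8 and 95.7). Pou3f1 had 5 and 4 kb, Tcf7l1 4 and 4 kb, Fgf5 3 and 2 kb, and Otx2 3 and 4 kb, which shared the window before the TSS and differed in the others, while Sall2 gave 7 kb in replicate 1 and 3 kb in replicate 2. The median of all genes was 2 kb in both. Lists of related genes had longer domains, with medians of 5 and 4.5 kb in naive genes and 6 and 5.5 kb in other formative or primed genes. Paralogues of the members had medians of 8 and 7.5 kb, so long domains were not particular to the members. At the principal start site, a setting added after the data were seen, the Otx2 domain measured 15 and 11 kb (percentiles 99.1 and 97.7). In replicate 1 this run takes in the stretch from 2 to 3 kb after the annotated 5′ end. Counted from that end, this window of 62 calls had a CC level under 50% and ended the domain. The 15 kb of replicate 1 thus depend on where the windows begin and are not unmodified throughout.

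The profiles placed these domains. At Otx2, CC read 82.8% to 100% in every window from 3 to 13 kb after the 5′ end in replicate 1 and 63.6% to 100% in replicate 2, and dropped to 45.2% and 24.2% in the next window. Before the 5′ end, 1 window from 1 kb upstream to the TSS read 97.0% and 94.6%, and all windows further upstream stayed at or under 40.9% in replicate 1. In replicate 2 the window starting at -4 kb read 52.4% of 21 calls, and those at -8, -3 and -2 kb read 5 of 5, 6 of 6 and 4 of 5 calls as CC. At Pou3f1 the gene itself read 98.4%, 98.1% and 100% CC in its first 3 windows in replicate 1 100%, 98.0% and 100% in replicate 2. Its last window, from 3 kb, read 73.2% CC and 16.1% HC/CH of 56 calls in replicate 1 and had no call in replicate 2. Before the gene, the window from 2 to 1 kb upstream read 14.5% and 12.1%. Fgf5 had a short dip in methylation from 1 kb before to 2 kb after the TSS, with 71.8% to 85.4% CC in replicate 1, and replicate 2 read 6 of 15 calls as CC, 79.2% and 88.1% in these windows. From 3 kb after the TSS to the 3′ end, Fgf5 did not exceed 34.4% CC in replicate 1. In replicate 2 the windows starting at 5 and 16 kb read 5 and 4 of 10 calls as CC. Sall2 had windows of high CC level at both ends. From the TSS to 3 kb they read 93.5%, 74.9% and 76.9% in replicate 1 and 82.1%, 70.8% and 78.3% in replicate 2. From 11 to 15 kb, where the inner start lies, they read 82.1%, 100%, 96.6% and 84.8% in replicate 1 and 82.9% to 100% in replicate 2. Within 250 bp of the 5′ start itself, CC was lower, at 61.8% of 89 calls and 2 of 15 calls, with MM at 21.3% and 6 of 15.

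**Figure D2:**
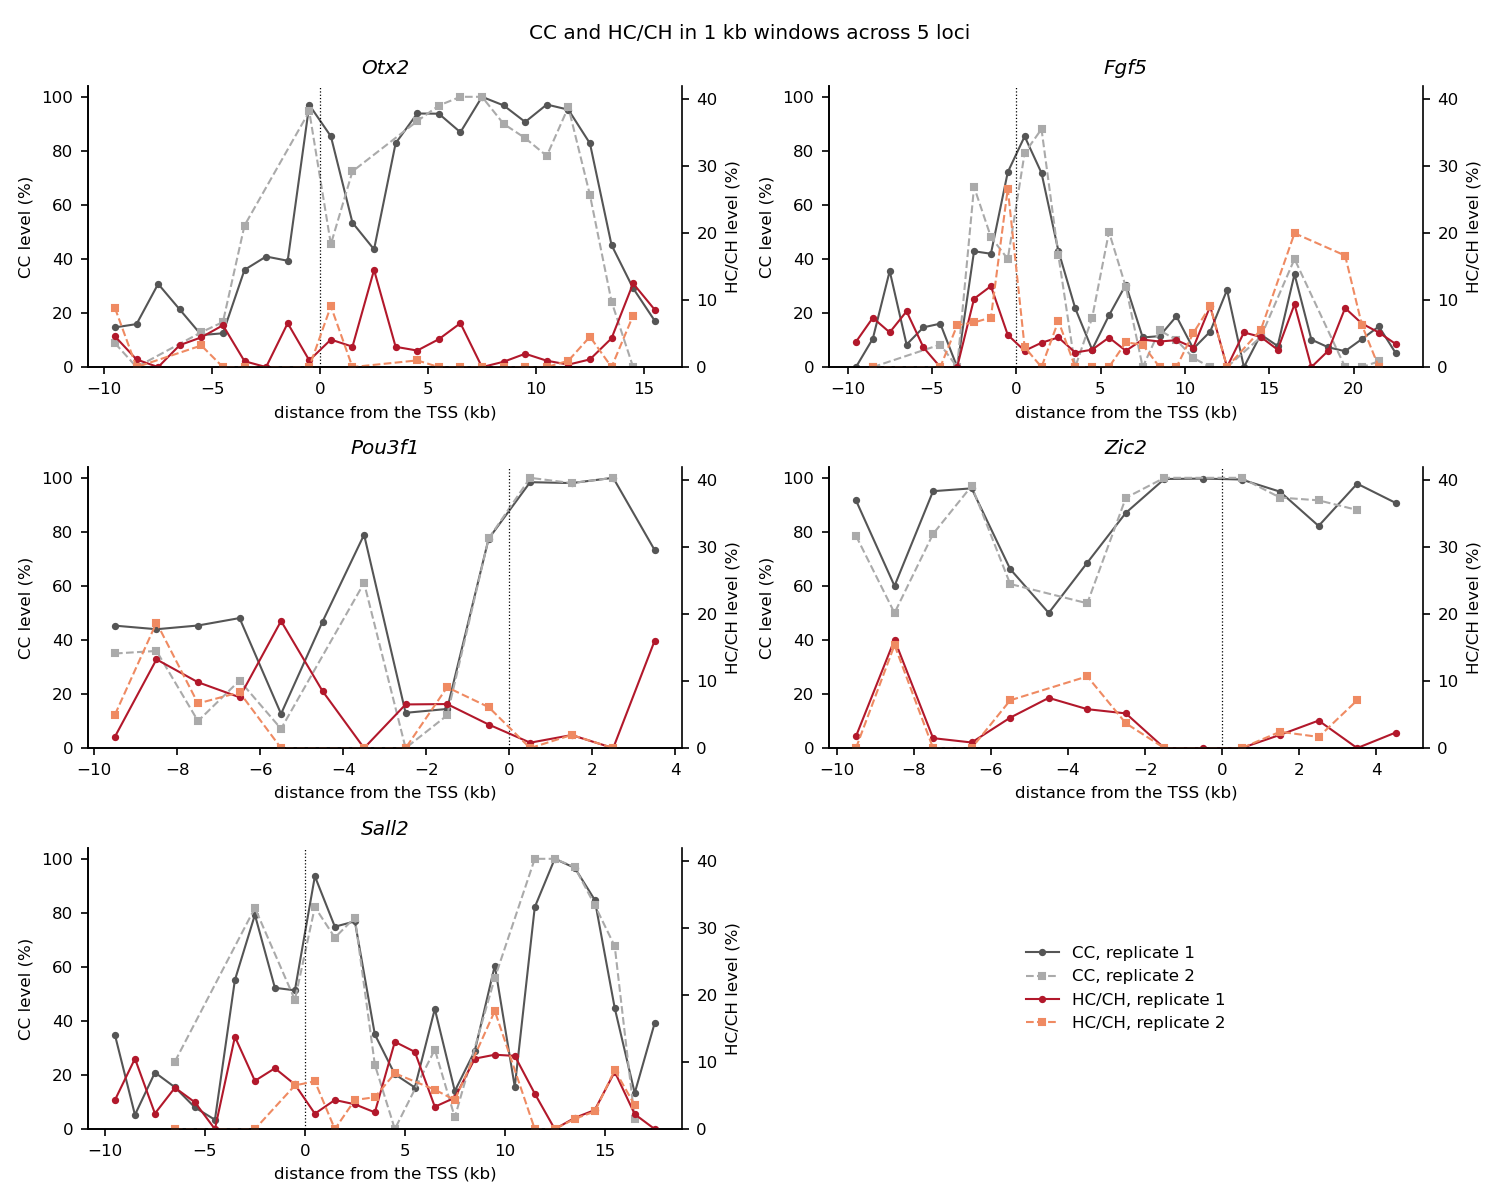
CC level (grey, left axis, percent) and HC/CH level (red, right axis, percent) in 1 kb windows at Otx2, Fgf5, Pou3f1, Zic2 and Sall2 against the distance from the TSS in kb, replicate 1 with solid and replicate 2 with dashed lines. Windows under 10 calls are left out and lines join the others. Otx2 has CC levels of 82.8% to 100% from 3 to 13 kb in replicate 1 and of 63.6% to 100% in replicate 2, and the window 9 to 8 kb before the TSS holds 16.2% and 15.4% HC/CH at Zic2.

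The long genes held low-methylated windows inside, at Tcf7l1 more often than in all genes and at Lef1 near the general share. Of 86 body windows of Tcf7l1 with at least 20 calls in each replicate, 20 (23.3%) had a CC level of 50% or more in both, and 5 had 80% or more. Lef1 had 6 of 60 (10.0%), and the body windows of all protein-coding genes had 7.85%. Past the promoter domain, the least modified windows of Tcf7l1 were those starting at 111 kb (96.2% CC of 183 calls and 97.4% of 38) and 34 kb (92.4% of 145 and 90.6% of 53). At Lef1 the low-methylated body windows beyond 3 kb started at 29, 32, 33 and 34 kb, with 57.1% to 77.3% CC in replicate 1 and 55.9% to 81.0% in replicate 2. Across windows, the CC level of replicate 1 ranked like that of replicate 2 (Spearman rho 0.867 over 86 windows of Tcf7l1 and 0.790 over 60 of Lef1), and HC/CH ranked less alike (0.442 and 0.476). Neighbouring windows share methylation and base composition, so these are descriptions.

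**Figure D3:**
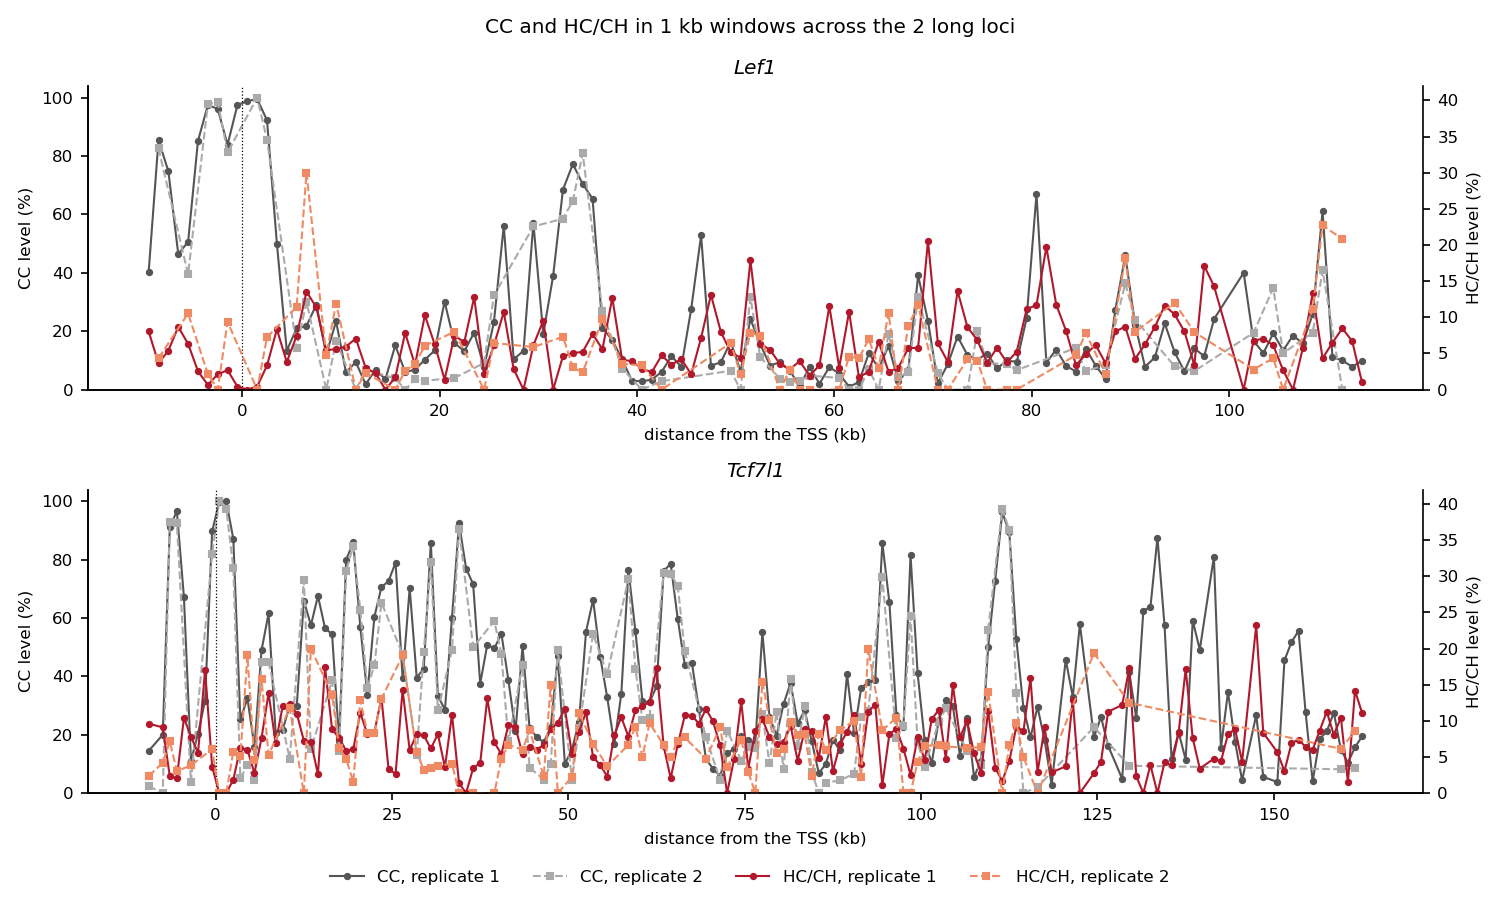
CC level (grey, left axis, percent) and HC/CH level (red, right axis, percent) in 1 kb windows across Lef1 and Tcf7l1 against the distance from the TSS in kb, for windows of at least 20 calls in the replicate drawn. Tcf7l1 has low-methylated windows along its body, among them the one starting at 111 kb, and Lef1 has such windows starting at 29, 32, 33 and 34 kb.

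Over the 7 loci together, HC/CH was highest in windows of intermediate CC level. The 1 kb windows of the 7 loci with at least 20 calls in each replicate were sorted by their CC level in replicate 1, and the hydroxymethylated states were then read in replicate 2. HC/CH was 4.38% (3.65 to 5.20) in 77 windows under 20% CC, 8.32% (7.17 to 9.58) in 57 windows of 20 to 50%, 8.03% (6.70 to 9.53) in 36 windows of 50 to 80%, and 2.26% (1.70 to 2.94) in 45 windows above 80%. The loci of all protein-coding genes had 3.63%, 6.24%, 6.29% and 1.75% in these classes. HM/MH read 3.78%, 4.97%, 3.95% and 0.503% in these classes of the members. Tcf7l1 and Lef1 supplied most of the windows. Tcf7l1 alone read 5.50%, 7.65%, 9.02% and 2.82% HC/CH, and Lef1 3.86%, 11.7%, 7.02% and 3.21%. Otx2 read 6.15% of 65 calls (1.70 to 15.0) in the lowest class and 1.31% (0.569 to 2.57) in the highest. In its intermediate classes it read 0 of 54 calls (up to 6.60%) and 0 of 29 (up to 11.9%). The lower classes of Otx2 hold 2, 2 and 1 windows and the intervals overlap, so no direction can be read there. Fgf5 had 0 of 67 calls (up to 5.36%) in its 1 window of 50 to 80%. The classes and the levels come from different libraries, but windows of a locus are not independent and no test was made.

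**Figure D4:**
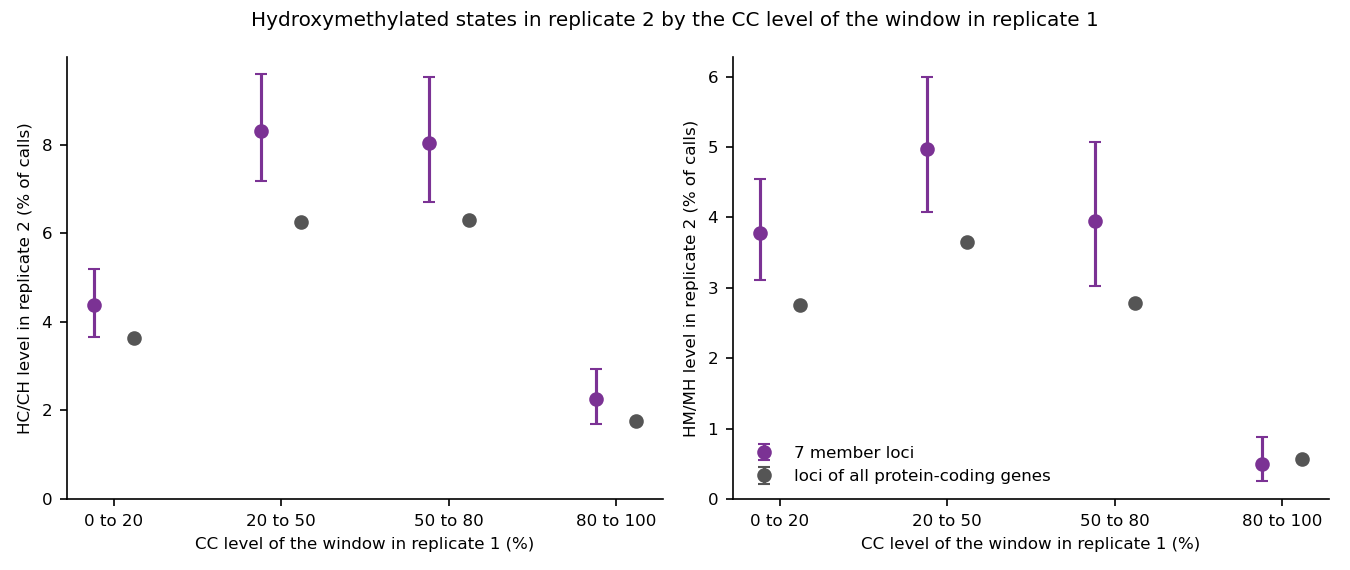
HC/CH (left) and HM/MH (right) level in replicate 2 in percent of calls, for 1 kb windows grouped by their CC level in replicate 1, in the 7 loci (purple) and in the loci of all protein-coding genes (grey), with 95% Clopper-Pearson intervals. HC/CH is highest where CC lies between 20 and 80%, at 8.32% and 8.03% in the 7 loci. CC and HC/CH are shares of the same calls.

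To find where single loci held the most HC/CH, the 1 kb window with the highest level in replicate 1 was tested in replicate 2 against the rest of the locus. Windows had to hold at least 50 calls in replicate 1 and 20 in replicate 2. This left out 11 windows at 5 members that read higher than the chosen one in replicate 1 but held too few calls in replicate 2, so the chosen window is not always the highest of replicate 1. The highest of them started at 147 kb at Tcf7l1 (23.2% of 56 calls), 69 kb at Lef1 (20.6% of 68), -6 kb at Pou3f1 (18.99% of 79), 2 kb at Otx2 (14.5% of 62) and 4 kb at Sall2 (13.04% of 69). In replicate 2 these windows had 0 calls at Tcf7l1, Lef1 and Otx2, 14 at Pou3f1 with no HC/CH call, and 12 at Sall2. The call was made at Pou3f1 and Sall2, 2 of 7 members, beside 7.02% of 16188 genes. At Pou3f1 the window from 9 to 8 kb before the TSS held 13.3% HC/CH of 166 calls in replicate 1 and 18.8% (10.1 to 30.5) of 64 calls in replicate 2, against 4.33% in the rest (adjusted p = 0.009998, one-sided Fisher's exact test). At Sall2 the window from 9 to 10 kb after the TSS, in an intron, held 11.1% of 81 calls and 17.6% (6.76 to 34.5) of 34, against 3.802% (adjusted p = 0.0464, Fisher's exact test). Both windows were of mixed state, with 44.0% and 35.9% CC at Pou3f1 and 60.5% and 55.9% at Sall2. With windows of 500 bp Pou3f1 lost its call (adjusted p = 0.118, Fisher's exact test), and with windows of 2 kb both did (adjusted p = 0.875 and 0.0793, Fisher's exact test).

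The window from 9 to 8 kb before the TSS of Zic2, between Zic2 and Zic5, read 16.2% of 105 calls and 15.4% of 26, against 2.33% in the rest in replicate 2 (adjusted p = 0.0622, Fisher's exact test). Choosing in replicate 2 and testing in replicate 1 called Zic2 at this same window (adjusted p = 9.14e-08), together with Pou3f1 (0.00829), Fgf5 (0.00432) and Lef1 (0.00657), all by Fisher's exact test. This was 4 of 7 members, beside 19.3% of 16188 genes called in that direction. Sall2 then missed the threshold at 0.0752. Both ways of choosing gave the same window at Fgf5, Pou3f1, Zic2 and Sall2, 4 of 7 members, and at 19.8% of all genes. The members had a median of 11 windows to choose from and all genes 14, and fewer windows make the same choice more likely. At Fgf5 the shared window lay from 2 to 1 kb before the TSS, with 12.1% of 124 calls and 7.41% of 27. At Otx2 the window chosen in replicate 1 covered the starts near 6.3 kb, with 6.56% of 122 calls, and replicate 2 had 0 of 30 there, which allows up to 11.6%.

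**Figure D5:**
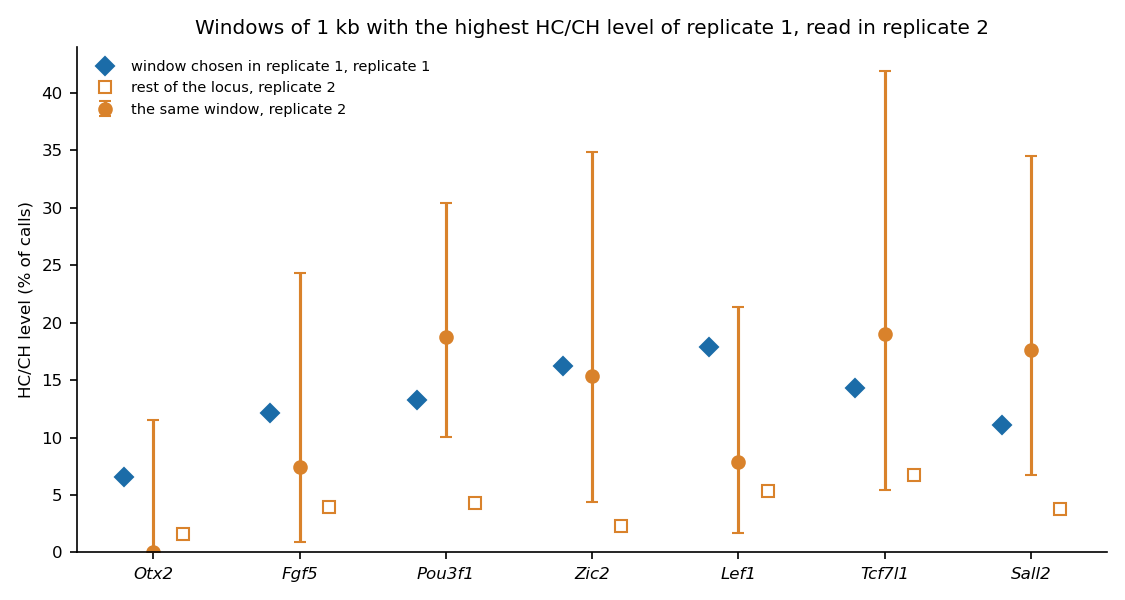
HC/CH level in percent of calls of the 1 kb window with the highest level in replicate 1 among windows with enough calls in both (blue diamonds), of the same window in replicate 2 (orange circles with 95% Clopper-Pearson intervals) and of the rest of the locus in replicate 2 (open squares). In replicate 2 the windows of Pou3f1 and Sall2 reach 18.8% and 17.6% against 4.33% and 3.802% in the rest.

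The 300 bases of these windows with the most HC/CH calls in replicate 1 are given for the members called, from GRCm38, on the strand of the gene and with each CpG in capitals.
Pou3f1, chr4:124647834-124648133, plus strand: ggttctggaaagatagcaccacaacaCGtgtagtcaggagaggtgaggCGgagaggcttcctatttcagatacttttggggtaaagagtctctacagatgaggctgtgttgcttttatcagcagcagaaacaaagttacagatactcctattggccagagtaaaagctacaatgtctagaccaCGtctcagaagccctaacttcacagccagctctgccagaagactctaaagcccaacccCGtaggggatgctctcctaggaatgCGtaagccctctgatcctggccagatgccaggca
Sall2, chr14:52319414-52319713, minus strand: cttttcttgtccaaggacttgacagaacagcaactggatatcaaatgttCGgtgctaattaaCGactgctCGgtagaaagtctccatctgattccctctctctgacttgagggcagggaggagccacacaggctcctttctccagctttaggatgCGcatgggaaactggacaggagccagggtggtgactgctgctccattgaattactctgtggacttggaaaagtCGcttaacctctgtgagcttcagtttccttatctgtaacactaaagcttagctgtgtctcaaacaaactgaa

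Both stretches held 5 CpG sites, against 34 in the promoter window of Tcf7l1. The 5 sites of Pou3f1 took 13 HC/CH calls of 69 in replicate 1 and 6 of 32 in replicate 2. The calls were spread, with 4 of the 5 sites holding an HC/CH call in replicate 1 and each of them in replicate 2. At Sall2, 4 of the 5 sites were covered, with 9 HC/CH calls of 68 and 6 of 25, and each covered site had at least 1 in each replicate.

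No difference between the strands of the gene was detected at this depth. The share of HC/CH calls with hmC on the sense strand was 50.5% of 769 calls and 54.8% of 146 at Lef1, 50.0% of 1221 and 51.0% of 288 at Tcf7l1, and 50.6% of 87 and 36.4% of 22 at Sall2. The 95% intervals at Tcf7l1, the best covered, were 47.2 to 52.9 and 45.1 to 56.95. None of the 3 members was called, and 0 of 8785 genes were (0.0%, exact binomial test with Benjamini-Hochberg adjustment). Without adjustment 762 genes passed p under 0.05 in replicate 1 and 623 in replicate 2, and 25 in both with the same direction. For MC/CM 0 of 5 members and 0 of 14060 genes (0.0%) were called, with 127 at an unadjusted p under 0.05 in both, and for HM/MH 0 of 2 members and 0 of 6164 genes (0.0%), with 21. Fgf5 had 58.2% of 364 MC/CM calls with mC on the sense strand in replicate 1 (adjusted p = 0.111, exact binomial test) and 47.2% of 53 in replicate 2. Lef1 had 48.5% of 1501 in replicate 1 and 58.3% of 355 in replicate 2 (adjusted p = 0.213 in replicate 2, exact binomial test).

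Among all ranked genes, the one nearest to each member over the 10 body levels of 5 states and 2 replicates was Hist1h1d for Otx2, Klhl13 for Fgf5, Gpx4 for Zic2, Mbnl2 for Lef1, Coro1c for Tcf7l1 and Gfi1 for Sall2. The Euclidean distances ran from 1.17 percentage points for Lef1 to 3.66 for Otx2. Body CC of all 7 members had a median of 65.7% and 61.1%. Without Pou3f1, which had too few calls to be ranked, the median of the other 6 was 53.0% and 47.4%, beside 61.0% and 50.6% for 7 naive genes (such as Nanog, Esrrb and Klf4 in a list of 12), 31.4% and 28.0% for 8 other formative or primed genes, and 65.8% and 60.3% for 8 paralogues of the members. Body HC/CH had medians of 4.29% and 3.25% over all 7 members, 4.52% and 3.81% without Pou3f1, 5.91% and 6.04% in the naive list, 5.44% and 3.91% in the other formative or primed list and 5.21% and 4.71% in the paralogues. Promoter CC had medians of 90.9% and 83.1% over all 7 members, and of 87.2% and 74.1% over the 5 with enough calls in both replicates, which left out Zic2 and Lef1. It was 92.4% and 94.6% in 9 naive genes, 96.9% and 96.1% in 10 other formative or primed genes and 96.3% and 95.7% in 8 paralogues. CC was called higher in the promoter than in the body at 7 of 8 naive, 7 of 9 other formative or primed and 7 of 8 paralogue genes tested, and lower at 0 of them.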

How the data were processed

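SCoTCH-seq libraries of 2 replicates of E14 cells were analysed. Per the study's methods, the authors trimmed read pairs with Cutadapt 4.6, aligned the inserts to GRCm38 (mm10) with BSBolt, removed duplicates with Picard 3.1.1 and called a CpG state per read pair. The deposited counts are calls of each of 9 states at a site, and the deposited percent is that count over the depth. The authors removed sites under 5 calls, in blacklisted regions or with many calling errors, so sparse CpG-rich promoters lose most sites in the shallower library. Depth was 143497239 and 31306245 calls.

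Calls were summed over sites of each region, each replicate apart, with Python 3.11.15 and SciPy 1.17.1. Complementary states were joined into 6 groups. Annotation was GENCODE vM21. Fisher's exact test compared regions with at least 50 calls in all protein-coding genes, with Benjamini-Hochberg adjustment over all genes per state and replicate. A call needed an adjusted p under 0.05 in both replicates with the same sign. The strand test needed 20 calls. Levels named as corrected used call rates of the spike-in duplexes of the same replicate. All other levels and all tests used uncorrected calls. On these duplexes 3.50% of the calls at MC/CM sites read HC/CH in replicate 1 and 0.607% in replicate 2. The Fisher contrast of regions and the correction were run on simulated calls drawn independently. Such calls lack the dependence within sites and read pairs, so they do not show how Fisher's test behaves under it. The quasi-binomial test, the strand test and the choice of maximum windows were not simulated. The genes named by rule were the 7 members and, for the 6 ranked, the nearest gene in body levels. Neighbouring genes and examples of the lists are named beside them. Members, lists and comparisons were chosen with earlier results of these data known. Alternatives were other region sizes, coverage minimums, start sites, shared sites, a quasi-binomial test over sites, and each replicate left out.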

Additional observations from a re-analysis of the deposited data

How the results depend on the processing

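The median body HC/CH level of the members stayed within the spread of the replicates under each alternative run. The median body HM/MH level, 2.32%, was 1.71% after correction with the spike-in call rates, 3.38% with at least 10 calls per site and 2.997% with the principal start site. The median promoter CC level, 85.1%, was 78.6% with at least 10 calls per site, 76.0% with a promoter of 2 kb either side and 83.1% to 90.9% with 1 replicate left out. Of the members called, the 3 for promoter CC became 1 with a promoter of 500 bp either side and 4 to 5 in 1 replicate alone, the 5 for upstream CC became 3 with the quasi-binomial test and 3 with sites covered in both replicates, and the 2 for exon CC became 0 with the quasi-binomial test. The 0 for promoter HC/CH became 1 in either replicate alone, for promoter HM/MH 0 to 2 and for upstream HC/CH 0 to 2. The 0 genes called by strand became 7 to 107 for MC/CM and 0 to 2 for HM/MH in 1 replicate alone. The 2 members called at the HC/CH maximum became 0 with windows of 2 kb, 0 with at least 10 calls per site, where 1 could be tested, and 4 with the choice made in replicate 2. The median unmodified domain, 4.5 kb, was 6.5 kb at a CC threshold of 40%, 3 kb at 80%, 3.75 kb with windows of 500 bp, 5.5 kb with at least 10 calls per site and 4 to 5 kb in 1 replicate.

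Of 75 differences between regions tested in the members, over all states, 18 had opposite signs in the replicates, 8 of them at Otx2. The sign changes below, in percentage points, cover CC and HC/CH in the 3 region contrasts and HM/MH in promoter against body, for which the alternatives were run. In the other HM/MH contrasts, replicates 1 and 2 gave 3.34 and -1.16 at Otx2 upstream and 0.603 and -1.59 at Zic2 in exons. For promoter minus body in replicate 1 alone and replicate 2 alone, they were 8.40 and -19.0 for CC at Otx2, -1.43 and 3.19 for HM/MH at Otx2, and for HC/CH -0.287 and 4.77 at Otx2, -1.05 and 2.79 at Fgf5, -1.83 and 2.98 at Pou3f1 and -0.655 and 2.48 at Sall2. With the principal start site, Otx2 gave 18.2 for CC, -1.43 for HC/CH and -2.51 for HM/MH. Sall2 HM/MH gave 0.404 at shared sites and 0.456 with a promoter of 2 kb. For upstream minus body, Fgf5 CC gave -2.67 at shared sites and Zic2 HC/CH 0.959 in replicate 1 alone and -0.246 in replicate 2 alone. For exons minus introns, CC gave 4.09 at Zic2 at shared sites, and -5.69 and 3.001 at Otx2 in replicate 1 and 2 alone, and HC/CH gave -0.222 at Otx2 and -0.833 at Lef1 at shared sites and -0.936 and 3.46 at Zic2 in replicate 1 and 2 alone. For the maximum window minus the rest, Otx2 gave 9.39 with windows of 500 bp, 0.795 with 2 kb and 1.18 with the choice in replicate 2, and Tcf7l1 -0.0987 with the choice in replicate 2 and -6.02 with at least 10 calls per site. The cause of these changes was not tested.

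A coverage minimum of 10 calls left no member to test in the region contrasts, which were not run there. No paired analysis was possible because the 2 replicates belong to 1 condition. With 2 replicates, n = 2 limits every SD, and replicate 2 limits each call at CpG-rich promoters, where Zic2 and Lef1 could not be compared.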
